A study of Mus musculus with 17 samples.

Results

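RNA-seq of mouse brain was used to ask what remained changed in the NDST3-treated PD model when it was set against healthy controls (sham). The comparison took 4 of the 17 samples of the series, 2 NDST3-treated libraries against 2 sham libraries, and every gene of the read count table. Of the 20328 genes listed, 19300 passed the filter on low counts and were tested. All mice were adult female wild-type ICR mice, 8 weeks old at the lesion. The lesioned mice received 6-hydroxydopamine (6-OHDA, 10 µg/µl) on 1 side into the substantia nigra. Those treated received 2 µl of AAV9 carrying human NDST3 under the CMV promoter 5 days later. Lesioned mice not given NDST3 received saline, per the methods of the study. A single further library from such 6-OHDA mice entered the fit of the spread, and its values are given beside the others with no test.

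Several features limit what these groups can show. The CMV promoter is not restricted to a cell type, and no sequenced group received a vector without NDST3. The table lists mouse genes only, so the human NDST3 transcript has no entry of its own. Whether any of its reads were counted at mouse *Ndst3* was not tested. The labels give the tissue only as brain; the study shows expression in the substantia nigra of control and lesioned mice, but does not say that the libraries used here came from that piece. The time from the AAV to RNA collection and the number of animals in a library are not given in the sources used here, so the p-values measure the spread between these libraries, which may be technical. Each listed gene had at least 1 read in every library, so a gene silent in either group is not in the table. In bulk tissue, fewer cells of a type and less RNA per cell cannot be told apart.

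6-OHDA is taken up by catecholamine neurons through their plasma membrane transporters and kills them by oxidative damage, and in the substantia nigra this removes the dopamine neurons that project to the striatum. Dying neurons are followed by activation of microglia, the resident phagocytes of the brain, and of astrocytes. NDST3 is an enzyme that replaces acetyl groups by sulfate on the glucosamine units of heparan sulfate, a chain carried by cell surface proteins.

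Depth was similar between groups, with total counts of 51003699 and 70533326 in the sham libraries, 60156632 and 58734432 in the NDST3-treated libraries and 51364866 in the 6-OHDA library. The 10 most abundant genes took 5.3 to 8.69% of a library's counts. Levels are given as CPM, read counts scaled to a common library total by the trimmed mean of M-values (TMM). A gene is said here to have risen or fallen where it changed at least 2-fold with an unadjusted p under 0.05 in edgeR's quasi-likelihood test, the study's own thresholds. By that rule 923 genes rose (4.78% of those tested) and 208 fell (1.08%). No gene passed an adjusted p of 0.05 in edgeR with these 2 libraries a group, although 2744 had an unadjusted p under 0.05, and DESeq2 on the same genes called 837 higher (4.34%) and 202 lower (1.05%) at an adjusted p under 0.05. The smallest edgeR adjusted p = 0.103 belonged to *Th*, *Ret* and *Chrna6*, all 3 of which fell. The 2 groups did not overlap for 5124 genes that were higher in both NDST3-treated libraries (26.5%) and 4323 that were lower (22.4%). Libraries of a group also differed from each other: among the 923 genes that rose, sham library 1 lay above sham library 2 in 804 and NDST3-treated library 2 above library 1 in 852.

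The deepest falls, among genes of at least 1 CPM on average whose groups did not overlap, included several genes of dopamine neurons. *Slc6a3*, the dopamine transporter (chromosome 13, 73536128 to 73578672, GRCm38.p6), and *Th*, tyrosine hydroxylase, the rate-limiting enzyme of dopamine synthesis (chromosome 7, 142892779 to 142899995), were the first and second of these. *Th* stood at 115 and 135 CPM in sham and at 11.5 and 8.03 CPM in the NDST3-treated libraries, with 2.15 CPM in the 6-OHDA library. Both treated libraries thus lay far below both sham libraries, a fall of 12.8-fold (log2 fold change -3.68 ± 0.21, SE; edgeR adjusted p = 0.103, DESeq2 adjusted p = 1.27e-59). *Slc6a3* stood at 228 and 243 CPM in sham, at 6.38 and 1.34 CPM in the NDST3-treated libraries and at 0.155 CPM in the 6-OHDA library. Its log2 fold change was -5.93 ± 0.76, and it lay between -7.46 and -5.23 when any 1 library was left out.

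The promoter of *Th* is shown because *Th* was among the deepest falls and its start carries a well-known element. The 75 bases before its start (chr7:142899996-142900070, minus strand, GRCm38.p6, from RefSeq) held the cyclic AMP response element, TGACGTCA, marked in capitals. That element was searched on both strands in the window of 250 bases before each gene's start. It was present in 2.69% of the 14148 tested genes with a promoter sequence. Among the 13 dopamine synthesis and transport genes with a sequence it was present in *Th* only.
Th: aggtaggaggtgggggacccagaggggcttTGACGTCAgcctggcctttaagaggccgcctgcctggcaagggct

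Of 15 genes of dopamine synthesis, storage, uptake and breakdown tested, 7 fell and none rose, and the median log2 fold change was -0.29 against 0.01 over all genes tested. *Ddc*, which makes dopamine from L-DOPA, fell from 177 and 148 CPM in sham to 50.4 and 36.8 CPM in the treated libraries. *Slc18a2*, the transporter that loads dopamine into vesicles, fell from 168 and 118 CPM to 36.1 and 31 CPM. *Slc10a4*, a vesicle protein of monoamine neurons, fell from 52.8 and 40.2 CPM to 9.15 and 7.15 CPM. For these genes the groups were well apart, and the 6-OHDA library was lower again, at 10.7, 6.35 and 2.42 CPM. *Gch1*, which starts the synthesis of the tetrahydrobiopterin that TH needs, fell by 1.10 ± 0.20 on the log2 scale, and *Aldh1a7*, an aldehyde dehydrogenase, fell by 1.75 ± 0.40. The enzymes of dopamine breakdown, which other cells also make, included *Maoa* and *Maob*, which did not pass: their log2 fold changes were 0.10 ± 0.11 and 0.34 ± 0.17.

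**Figure D1:**
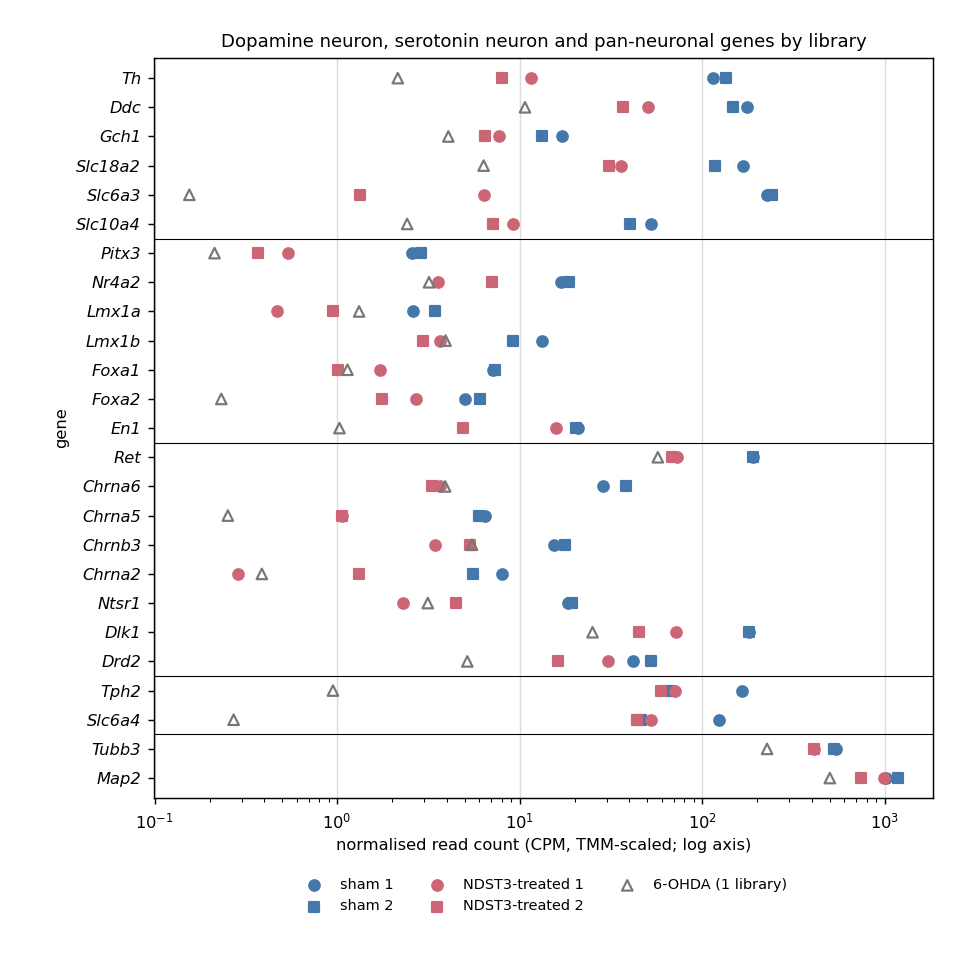
Normalised read count (CPM, log axis) of dopamine neuron, serotonin neuron and pan-neuronal genes in each library; circles and squares are libraries 1 and 2 of sham (blue) and NDST3-treated (red) brains, and the open triangle is the 6-OHDA library. *Th* and *Slc6a3* in the treated libraries lay below both sham libraries, whereas for *Slc6a4* the treated libraries lay at 52.3 and 44.2 CPM, around the lower sham library at 46.3 CPM.

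Transcription factors of midbrain dopamine neurons were lower too, with 6 of 13 tested falling and a median log2 fold change of -0.99. *Nr4a2* (Nurr1), which sustains the dopamine phenotype, fell from 16.8 and 18.7 CPM to 3.58 and 7.02 CPM. *Pitx3*, needed for the survival of nigral neurons, fell from 2.58 and 2.88 CPM to 0.537 and 0.369 CPM. *Foxa1* fell by 2.41 ± 0.33, *Lmx1a* by 2.09 ± 0.44, *Lmx1b* by 1.76 ± 0.25 and *Foxa2* by 1.31 ± 0.30 on the log2 scale. In each the groups did not overlap, against 22.4% of all genes tested that were lower without overlap. These genes were called on the same libraries, so the lack of overlap adds no separate evidence. *En1*, a homeobox gene of the same neurons, did not pass: it stood at 20.9 and 20.3 CPM in sham, and the treated libraries were split at 15.9 and 4.88 CPM.

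Receptors and other membrane genes of these neurons included 8 that fell among 23 tested, and 1, *Lpl*, that rose; the median was -0.71. *Ret*, a receptor for glial cell line-derived neurotrophic factor, was steady within groups, at 190 CPM in both sham libraries and 72.7 and 68.2 CPM in the treated ones (log2 fold change -1.43 ± 0.09). *Drd2*, the dopamine autoreceptor, fell by 1.02 ± 0.32, and only 1 of the 4 fits that each left out a library kept that call. *Ntsr1*, the neurotensin receptor, fell from 18.5 and 19.3 CPM to 2.3 and 4.47 CPM. *Dlk1*, a membrane protein of the Notch ligand family, fell from 180 and 181 CPM to 71.7 and 45.2 CPM. *Lpl*, lipoprotein lipase, which microglia also make, rose by 3.11 ± 0.41.

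Some nicotinic receptor subunits fell. Of 17 nicotinic and cholinergic genes tested, 4 fell and none rose, with a median of -0.55. *Chrna6* fell from 28.6 and 38.1 CPM to 3.66 and 3.33 CPM, and *Chrna5* fell from 6.47 and 5.98 CPM to 1.07 and 1.06 CPM. *Chrnb3* fell by 1.92 ± 0.26 on the log2 scale. *Chrna2* fell from 8.02 and 5.55 CPM to 0.286 and 1.31 CPM. The number that fell was 7 without sham library 2. In none of these 4 did the groups overlap, against 22.4% of all genes tested that were lower without overlap. They were called by fold and p on the same libraries, so the lack of overlap adds no separate evidence. For *Chrna6* the 6-OHDA library, at 3.91 CPM, stood beside the treated ones. *Chrna4*, another subunit of dopamine neurons, did not pass, with a log2 fold change of -0.67 ± 0.20. The genes of acetylcholine synthesis and transport did not pass either: *Chat*, which makes acetylcholine, stood at 12.8 and 3.65 CPM in sham and at 3.64 and 3.4 CPM in the treated libraries, with sham library 1 above the other 3. *Slc18a3*, the vesicular transporter, had a log2 fold change of -1.14 ± 0.54, and *Slc5a7*, the choline transporter, had one of -0.96 ± 0.42.

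Genes of other neurons were mostly not called, and whether they differed less than those of dopamine neurons was not tested. None of 10 serotonin neuron genes passed, although the median was -0.50: *Tph2*, the enzyme of serotonin synthesis, stood at 165 and 66.6 CPM in sham and at 70.9 and 59.6 CPM in the treated libraries, where the groups overlapped. The sham libraries differed more than 2-fold in this gene, and the 6-OHDA library held 0.949 CPM. Without sham library 2, 3 of the 10 fell, and without NDST3-treated library 1, 1 rose. Of 20 pan-neuronal and synaptic vesicle genes none passed at 2-fold and 6 were lower at an unadjusted p under 0.05, with a median of -0.32. None of 17 genes of glutamatergic and GABAergic identity, 14 forebrain regional genes, 29 potassium channel genes, 23 voltage-gated sodium and calcium channel genes, 28 nuclear respiratory chain subunits or 19 genes of inherited Parkinson disease passed. Of the hypothalamic peptide genes 2 of 11 rose, *Gal* and *Oxt*, and 1, *Crh*, fell. *Gal*, galanin, stood at 3.69 and 1.93 CPM in sham and at 9.39 and 7.62 CPM in the treated libraries. *Gal* was also the 1 of 3 noradrenaline neuron genes that rose. None of 15 regulators of thalamus, habenula and tectum passed, and 2 of 5 genes listed for hindbrain identity rose, *Egr2* among them.

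Genes of phagocytes were prominent among the rises. Of 22 genes of disease-associated microglia, a state described around dying neurons and plaques, 19 rose and none fell, with a median log2 fold change of 2.42. The summed level of these 22 genes was 6100 and 4160 CPM in sham, 13800 and 19300 CPM in the treated libraries and 35300 CPM in the 6-OHDA library. *Itgax*, the integrin CD11c, rose from 13.3 and 4.52 CPM to 99.7 and 136 CPM (log2 fold change 3.74 ± 0.55). *Clec7a*, the beta-glucan receptor dectin-1, rose from 10.6 and 3.23 CPM to 71.5 and 114 CPM. *Gpnmb*, a glycoprotein of lipid-laden phagocytes, rose from 40.2 and 5.08 CPM to 213 and 434 CPM. *Trem2*, the lipid receptor that drives this state, rose by 3.07 ± 0.53, and *Tyrobp*, its signalling partner, rose by 2.37 ± 0.30. *Apoe*, the lipid carrier made by astrocytes and microglia, rose from 3420 and 2060 CPM to 7360 and 10700 CPM.

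Genes of resting microglia rose less uniformly, 9 of 17 with a median of 1.23. *Aif1*, which codes for the microglial marker IBA1, rose from 4.95 and 4.29 CPM to 17.5 and 26.6 CPM, and *Cx3cr1*, the fractalkine receptor, rose by 1.72 ± 0.27 on the log2 scale. *P2ry12*, the ADP receptor of surveying microglia, did not reach 2-fold, at 29.2 and 27.2 CPM in sham and 40.8 and 52.1 CPM in the treated libraries. *Tmem119*, another marker of that state, stood at 23.9 and 24.2 CPM in sham and at 33.4 and 42.1 CPM in the treated libraries. For these 2 genes the groups did not overlap (log2 fold changes 0.72 ± 0.15 and 0.65 ± 0.14, DESeq2 adjusted p = 0.00485 and adjusted p = 0.0124). Markers of incoming monocytes, macrophages and neutrophils were mixed: 6 of 16 rose and 1 fell, and the number that rose was 3 without sham library 2 or without NDST3-treated library 2 and 9 without NDST3-treated library 1. *Ms4a7*, a macrophage gene, rose from 1.07 and 0.536 CPM to 4.08 and 7.96 CPM. *Cd163*, the haemoglobin scavenger receptor of perivascular macrophages, fell from 5.01 and 1.93 CPM to 1.19 and 0.787 CPM, and 2 of 4 leave-one-out fits kept that call.

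**Figure D2:**
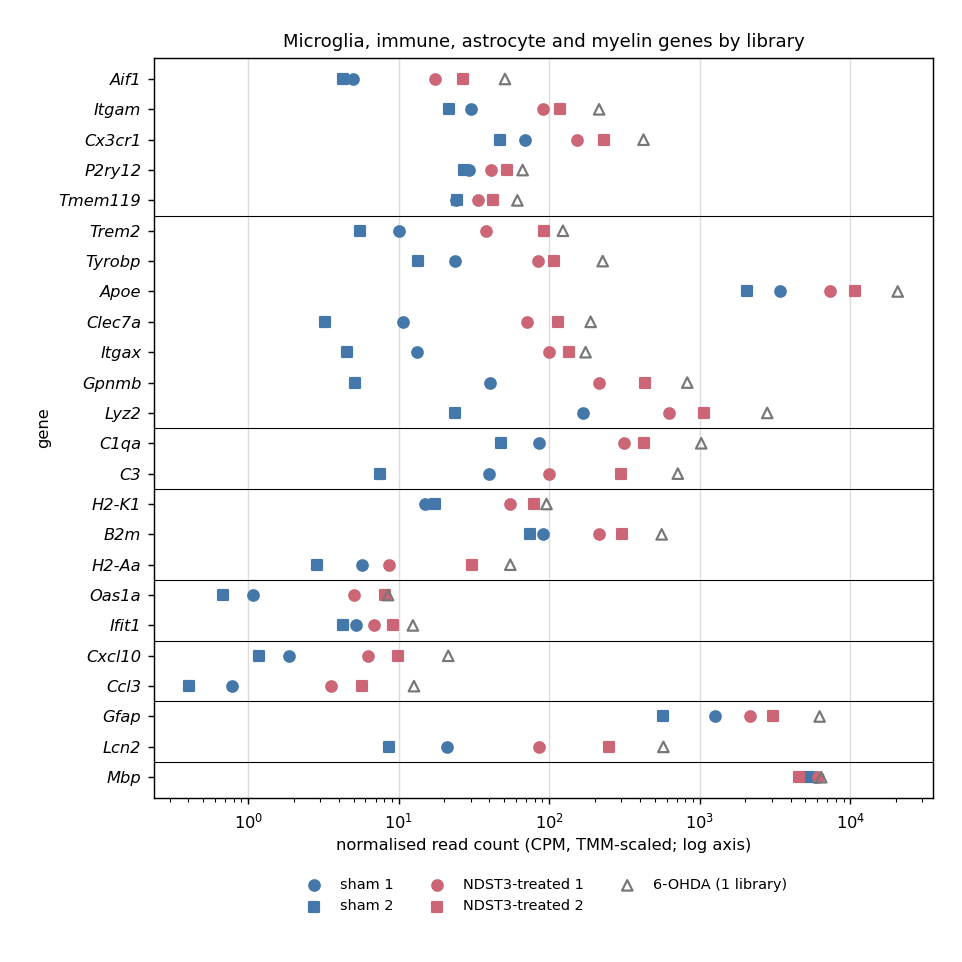
Normalised read count (CPM, log axis) of microglia, immune, astrocyte and myelin genes in each library, with symbols for sham (blue), NDST3-treated (red) and 6-OHDA (open triangle) libraries. Most immune genes lay higher in both treated libraries than in both sham libraries, with *Gpnmb* at 213 and 434 CPM against 40.2 and 5.08 CPM, while *Mbp* overlapped between groups.

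Of 26 lysosomal hydrolase and proton pump genes 12 rose, with a median of 0.91. *Ctsd*, the aspartic protease cathepsin D, rose from 815 and 562 CPM to 2420 and 3230 CPM. *Atp6v0d2*, a proton pump subunit of macrophages and osteoclasts, rose by 3.87 ± 0.69 on the log2 scale. *Mcoln3*, a cation channel of endosomes and lysosomes had the largest log2 fold change, 4.12 ± 0.84, among genes of at least 1 CPM on average whose groups did not overlap, and rose from 0.291 and 0.0869 CPM to 1.51 and 4.86 CPM.

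Complement genes rose in 13 of 20 cases, with a median of 1.82, and in 8 without sham library 2. *C1qa*, which starts the classical pathway, rose from 85.3 and 47.5 CPM to 312 and 425 CPM. *C3*, the component on which all pathways meet, stood at 39.6 and 7.49 CPM in sham and 99.8 and 299 CPM in the treated libraries, and 2 of 4 leave-one-out fits kept the call. *C4b* rose by 1.29 ± 0.34. Major histocompatibility complex (MHC) class I and antigen processing genes rose in 11 of 18 cases, with a median of 1.42. *H2-K1*, a class I heavy chain whose reads may be split among near-identical copies, rose from 14.9 and 17.4 CPM to 55 and 78.9 CPM, and *B2m*, the common light chain, rose by 1.66 ± 0.21. MHC class II and antigen presentation genes rose in 11 of 14 cases. *H2-Aa* stood at 5.73 and 2.84 CPM in sham and at 8.55 and 30.5 CPM in the treated libraries, so the rise rested on NDST3-treated library 2. Without that library 3 of the 14 class II genes rose, against 11 without NDST3-treated library 1, and 6 and 4 without sham libraries 1 and 2.

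Interferon-stimulated genes rose in 22 of 40 cases with a median of 1.10, and 35 of the 40 were higher at an unadjusted p under 0.05. *Oas1a*, which makes the second messenger of antiviral RNA decay, rose from 1.07 and 0.681 CPM to 5.01 and 8.06 CPM. *Cxcl10*, a chemokine that draws T cells, rose from 1.86 and 1.17 CPM to 6.21 and 9.82 CPM. *Isg15*, a ubiquitin-like modifier, rose from 2.93 and 2.17 CPM to 4.4 and 6.55 CPM. *Ifit1*, which binds foreign RNA caps, did not reach 2-fold, at 5.2 and 4.24 CPM in sham and 6.82 and 9.21 CPM in the treated libraries. The number of these genes that rose was 14 without sham library 2, 12 without NDST3-treated library 2 and 29 without NDST3-treated library 1.

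Their promoters are shown because these genes share a binding element for interferon-activated factors. The element was searched as GAAA, any 2 bases and GAAA on both strands in the same window. It was present in 18 of 27 interferon-stimulated genes with a promoter sequence (66.7%), in 6.6% of the 697 genes that rose, in 2.96% of the 135 that fell and in 3.22% of all 14148 tested genes with a sequence. Capitals mark the element, and overlapping matches run together. The stretches lie at chr5:120907526-120907575 (*Oas1a*, minus strand), chr5:92349033-92349132 (*Cxcl10*, minus strand), chr4:156200827-156200926 (*Isg15*, minus strand), chr3:142620574-142620662 (*Gbp2*, plus strand) and chr19:34640755-34640854 (*Ifit1*, plus strand), all before the gene's start, on GRCm38.p6 from RefSeq.
Oas1a: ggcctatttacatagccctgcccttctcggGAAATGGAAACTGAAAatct
Cxcl10: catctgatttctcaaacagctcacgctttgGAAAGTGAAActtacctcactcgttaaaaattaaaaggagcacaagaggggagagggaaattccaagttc
Isg15: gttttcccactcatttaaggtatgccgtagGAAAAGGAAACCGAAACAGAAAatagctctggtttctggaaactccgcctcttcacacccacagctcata
Gbp2: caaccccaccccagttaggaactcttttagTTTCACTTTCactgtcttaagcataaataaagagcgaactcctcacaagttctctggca
Ifit1: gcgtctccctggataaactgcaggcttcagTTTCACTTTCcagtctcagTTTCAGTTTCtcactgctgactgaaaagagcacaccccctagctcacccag

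Among chemokines and their receptors 14 of 25 rose, and among cytokines and theirs 13 of 24 rose, with medians of 1.26 and 1.25. Without NDST3-treated library 2 the chemokine count was 9. *Ccl3*, which attracts phagocytes, rose from 0.777 and 0.406 CPM to 3.54 and 5.7 CPM. *Tgfb1*, which restrains inflammation, rose from 11.9 and 7.65 CPM to 24.8 and 41.5 CPM, and *Il1rn*, the antagonist of the interleukin 1 receptor, rose by 3.03 ± 0.62. *Il1b*, interleukin 1 beta itself, rose by 2.86 ± 0.90 from levels below 1 CPM in sham, and 2 of 4 leave-one-out fits kept the call.

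Lymphocyte genes were sparser. Of 19 T cell and NK cell genes tested, 5 rose, and of 11 B cell and plasma cell genes 2 rose, the immunoglobulin genes *Igkc* and *Igha*, with medians of 0.90 and 0.08. The T cell and NK cell count was 3 without sham library 1, sham library 2 or NDST3-treated library 2 and 8 without NDST3-treated library 1. The B cell and plasma cell count was 0 without sham library 1, sham library 2 or NDST3-treated library 2, 3 without NDST3-treated library 1, and 0 with the replicate block and at an adjusted p under 0.05 in DESeq2. The T cell receptor genes *Trac* and *Trbc2* did not pass, with log2 fold changes of 0.14 ± 0.31 and 0.66 ± 0.40. The T cell genes *Cd3d*, *Cd3e*, *Cd3g*, *Cd8a* and *Cd8b1* were not analysed here. *Lag3*, an immune checkpoint receptor that microglia also make, rose from 13.4 and 9.79 CPM to 55.3 and 84 CPM out of a summed level of 28 and 20.9 CPM in sham and 72 and 111 CPM in the treated libraries for the whole list. *Pdcd1*, another checkpoint receptor, rose by 2.94 ± 0.36, and *Ccl5*, a chemokine of activated lymphocytes and of glia, rose from 0.272 and 0.232 CPM to 0.857 and 1.32 CPM.

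Of 20 reactive astrocyte genes 12 rose, with a median of 1.53. Other cells make some of them, and lists share members: *Cxcl10*, counted here, was also counted among the interferon-stimulated genes and the chemokines. *Gfap*, the intermediate filament of astrocytes, stood at 1250 and 572 CPM in sham and at 2140 and 3050 CPM in the treated libraries. *Serpina3n*, a protease inhibitor of reactive astrocytes, rose from 141 and 87.2 CPM to 310 and 497 CPM. *Vim*, vimentin, rose by 1.75 ± 0.53, and 2 of 4 leave-one-out fits kept that call. By contrast 1 of 18 genes of astrocyte function rose, the water channel *Aqp4*, and the list's median was -0.07. *Slc1a2*, the glutamate transporter, stood at 2170 and 2210 CPM in sham and at 2220 and 1730 CPM in the treated libraries. No myelin or mature oligodendrocyte gene of 18 passed, and *Mbp*, myelin basic protein, stood at 5830 and 5230 CPM in sham against 6060 and 4580 CPM, where the groups overlapped. Of 14 oligodendrocyte precursor genes 1 rose, and 3 did so without sham library 1 or without NDST3-treated library 1.

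**Figure D3:**
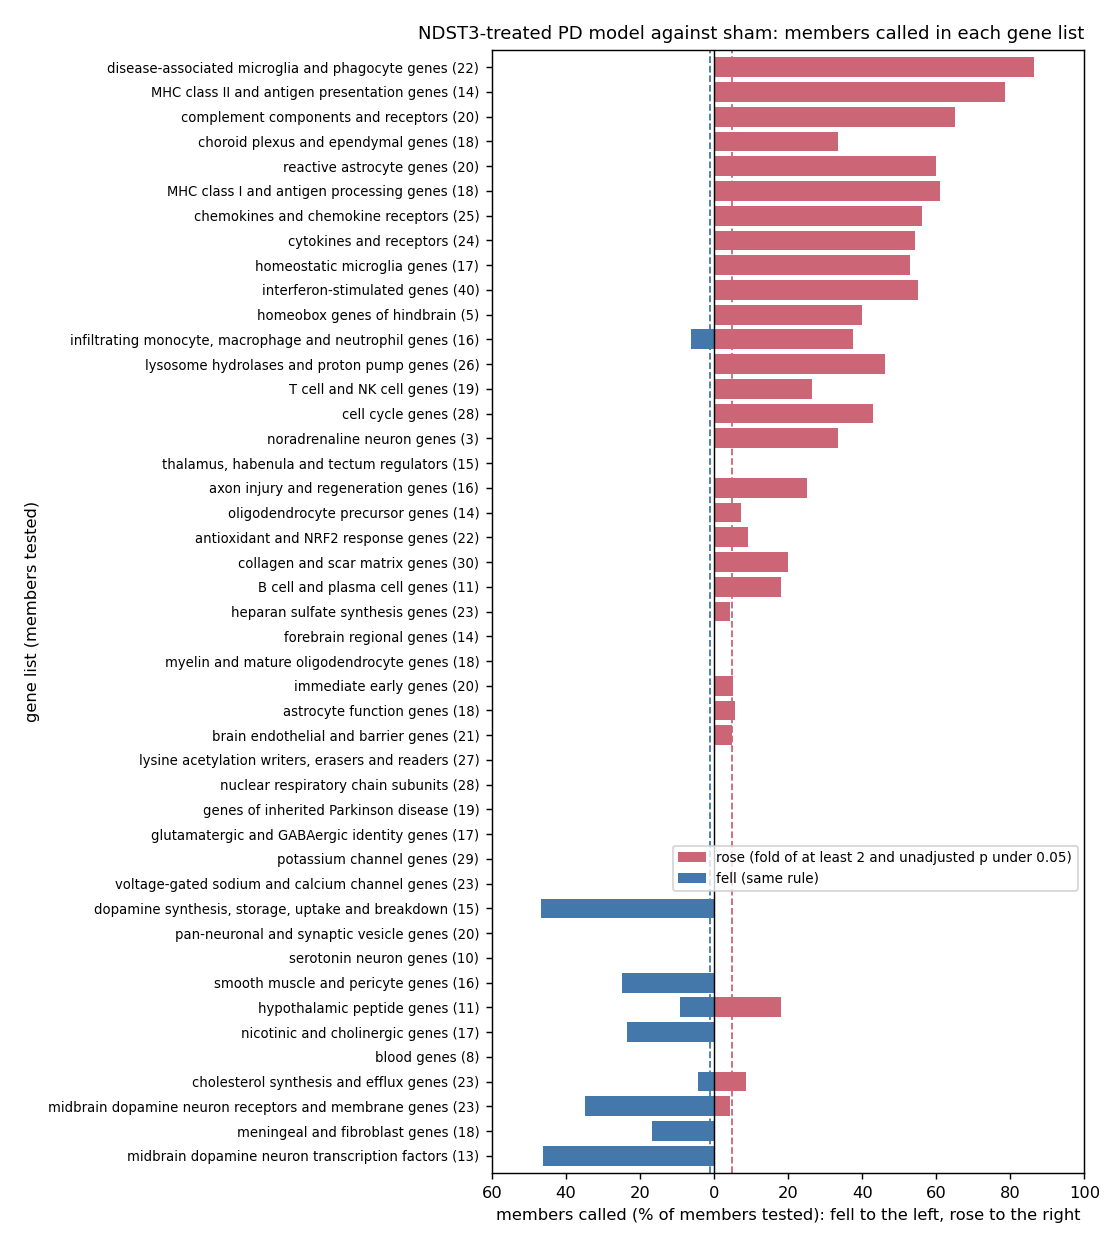
Share of the tested members of each gene list that rose (red, to the right) or fell (blue, to the left) in NDST3-treated against sham brains, ordered by the list's median log2 fold change; dashed lines mark the shares over all genes tested, 4.78% and 1.08%. The 7 lists written after the values were seen are not drawn. The disease-associated microglia list, with 19 of 22 rising, lies at the top, and the dopamine lists show the longest bars to the left.

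Cell cycle genes rose in 12 of 28 cases, with a median of 0.85, and in 7 without NDST3-treated library 2. *Top2a*, the topoisomerase of dividing cells, rose from 1.28 and 0.623 CPM to 2.91 and 5.76 CPM, and *Cdk1*, the kinase of entry into mitosis, rose from 0.621 and 0.536 CPM to 1.55 and 2.5 CPM. *Mcm2*, a replication licensing factor, did not pass, with a log2 fold change of 0.21.

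Cholesterol genes divided by function. Of 23 tested, 2 rose and 1 fell at 2-fold, but 17 were lower and 4 higher at an unadjusted p under 0.05, against 4.39% lower and 9.82% higher over all genes tested. DESeq2 called 16 of the 17 lower at an adjusted p under 0.05. The 17 were genes of cholesterol synthesis, its regulation and uptake, and their changes were modest. *Hmgcs1*, which commits acetyl units to the pathway, stood at 302 and 311 CPM in sham and at 188 and 160 CPM in the treated libraries (log2 fold change -0.82 ± 0.11, DESeq2 adjusted p = 1.59e-07). *Sqle*, which makes the sterol precursor squalene epoxide, had a log2 fold change of -0.65 ± 0.10. The 4 higher genes export, store or oxidise cholesterol. *Abca1*, the efflux pump, rose from 91.5 and 64.9 CPM to 209 and 295 CPM, and *Ch25h*, cholesterol 25-hydroxylase, rose from 3.05 and 0.855 CPM to 11.9 and 15.9 CPM. *Abcg1*, a second efflux pump, and *Soat1*, which makes cholesterol esters, had log2 fold changes of 0.63 ± 0.14 and 0.98 ± 0.14 and did not reach 2-fold. In all 21 the sham and treated libraries did not overlap, against 22.4% lower and 26.5% higher over all genes tested. These 21 were picked by p on the same libraries, so the lack of overlap adds no separate evidence.

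**Figure D4:**
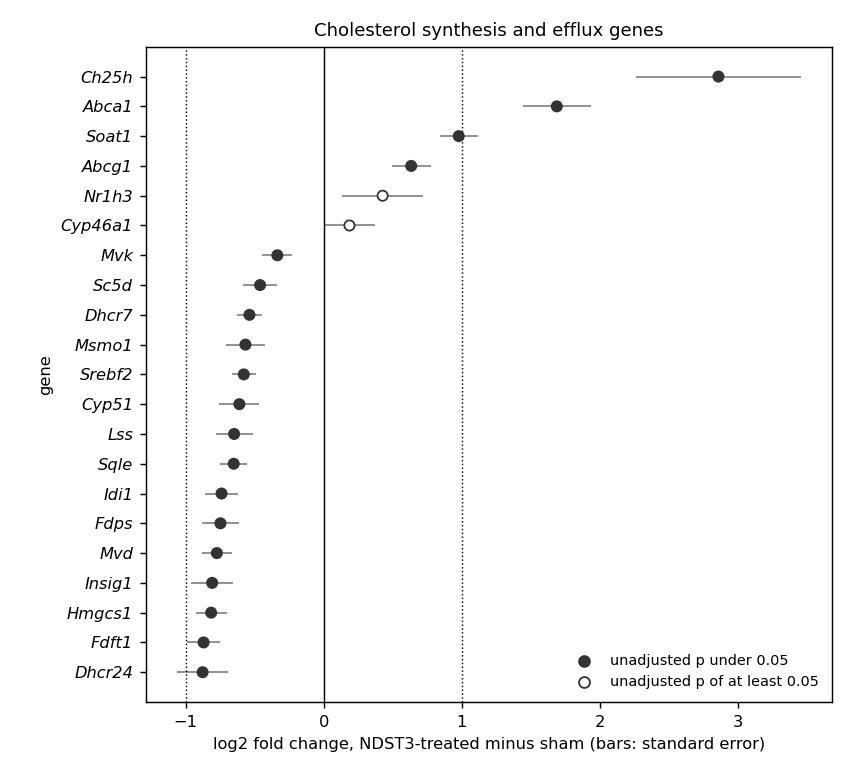
Log2 fold change (NDST3-treated minus sham) of cholesterol genes tested, with standard errors; filled points had an unadjusted p under 0.05 and dotted lines mark 2-fold. Genes of synthesis and uptake such as *Hmgcs1* (-0.82) lay to the left, and *Abca1* (1.69) and *Ch25h* (2.86) lay to the right.

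The enzymes of heparan sulfate synthesis, the pathway of the delivered protein, were mostly level. Mouse *Ndst3* (chromosome 3, 123526166 to 123691174) stood at 14.1 and 21 CPM in sham, at 23.3 and 13.5 CPM in the NDST3-treated libraries and at 7.96 CPM in the 6-OHDA library. The groups overlapped, with a log2 fold change of 0.07 ± 0.33 (edgeR adjusted p = 0.941). Of 23 genes of the pathway tested 1 rose and none fell, with a median of 0.07. The exception was *Hpse*, heparanase, which cuts the chains rather than building them and rose from 1.38 and 0.246 CPM to 6.6 and 13.9 CPM (log2 fold change 3.70 ± 0.82). None of 27 writers, erasers and readers of lysine acetylation passed.

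Few stress and injury genes were called. Over all genes tested 4.78% rose, and the antioxidant and immediate early counts did not stand apart from that share. Of 22 antioxidant and NRF2 response genes 2 rose (5 without sham library 1, 4 without NDST3-treated library 1); *Hmox1*, haem oxygenase 1, rose from 11.5 and 7.26 CPM to 20.6 and 30.5 CPM, while *Nqo1*, a quinone reductase, had a log2 fold change of -0.04 ± 0.23. Of 16 axon injury and regeneration genes 4 rose. *Atf3*, the transcription factor induced by nerve injury, rose from 7.61 and 4.37 CPM to 20.7 and 28.9 CPM, whereas *Gap43*, a growth cone protein, stood at 314 and 332 CPM in sham and at 265 and 258 CPM in the treated libraries. Of 20 immediate early genes only *Egr2* rose, from 0.505 and 0.406 CPM to 2.65 and 6.01 CPM. *Fos*, the activity marker, overlapped between groups at 14.5 and 20.3 CPM against 16.6 and 16.9 CPM.

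Genes of vessel walls and of the brain's linings also moved. Of 16 smooth muscle and pericyte genes 4 fell and none rose, with a median of -0.52. *Acta2*, smooth muscle actin, fell from 36.3 and 31.7 CPM to 10.3 and 14.3 CPM, and *Myh11*, smooth muscle myosin, fell from 22 and 19.1 CPM to 7.37 and 8.31 CPM. *Tagln*, transgelin, fell from 18.1 and 10.9 CPM to 5.79 and 4.27 CPM. The 6-OHDA library stood elsewhere, at 66.7, 18.5 and 170 CPM for these 3 genes. Of 21 endothelial and barrier genes 1 rose, the adhesion molecule *Icam1*, and *Cldn5*, the tight junction protein, overlapped between groups at 45.3 and 38.8 CPM against 38.6 and 43.8 CPM. Of 18 meningeal and fibroblast genes 3 fell, with a median of -0.80. Their summed level was 1380 and 594 CPM in sham, 412 and 647 CPM in the treated libraries and 2540 CPM in the 6-OHDA library. No meningeal gene fell without sham library 1, and 8 fell without sham library 2. Of 30 collagen and scar matrix genes 6 rose, with a median of 0.10, and 2 did so without sham library 2 and 4 without NDST3-treated library 2. None of 8 blood genes passed.

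Genes of ciliated cells rose as well. Of 18 choroid plexus and ependymal genes 6 rose, with a median of 1.66. The choroid plexus gene *Ttr*, the thyroxine carrier, was 30.2 and 3.04 CPM in sham, 2.3 and 1030 CPM in the treated libraries and 24 CPM in the 6-OHDA library, so NDST3-treated library 2 stood alone and the groups overlapped. *Folr1*, the folate receptor of choroid plexus, was also high in that library only, at 1.13 and 0.29 CPM in sham against 1.21 and 13.1 CPM. The calls depended on which NDST3-treated library was left out: more members rose without library 1, whereas without library 2 fewer rose and some fell. The ependymal members were steadier: *Tmem212*, a membrane protein of ciliated cells, rose from 1.11 and 0.608 CPM to 4.6 and 4.29 CPM, and *Ccdc153*, a dynein regulator, rose by 2.07 on the log2 scale. In a list of 79 motile cilium genes written after these values had been seen, 46 rose and none fell, with a median of 1.17. *Cfap43*, an axonemal protein, rose from 1.22 and 1.01 CPM to 4.35 and 7.12 CPM, and *Hydin*, of the central pair of the axoneme, rose from 1.88 and 1.3 CPM to 4.75 and 4.04 CPM. The 6-OHDA library held 0.755, 1.94 and 0.775 CPM of *Tmem212*, *Cfap43* and *Hydin*. Without NDST3-treated library 2, 24 cilium genes still rose, and without sham library 2, 18 did. The summed choroid plexus and ependymal level was 119 and 71.7 CPM in sham and 102 and 1290 CPM in the treated libraries, and its part in the cilium genes was not tested.

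**Figure D5:**
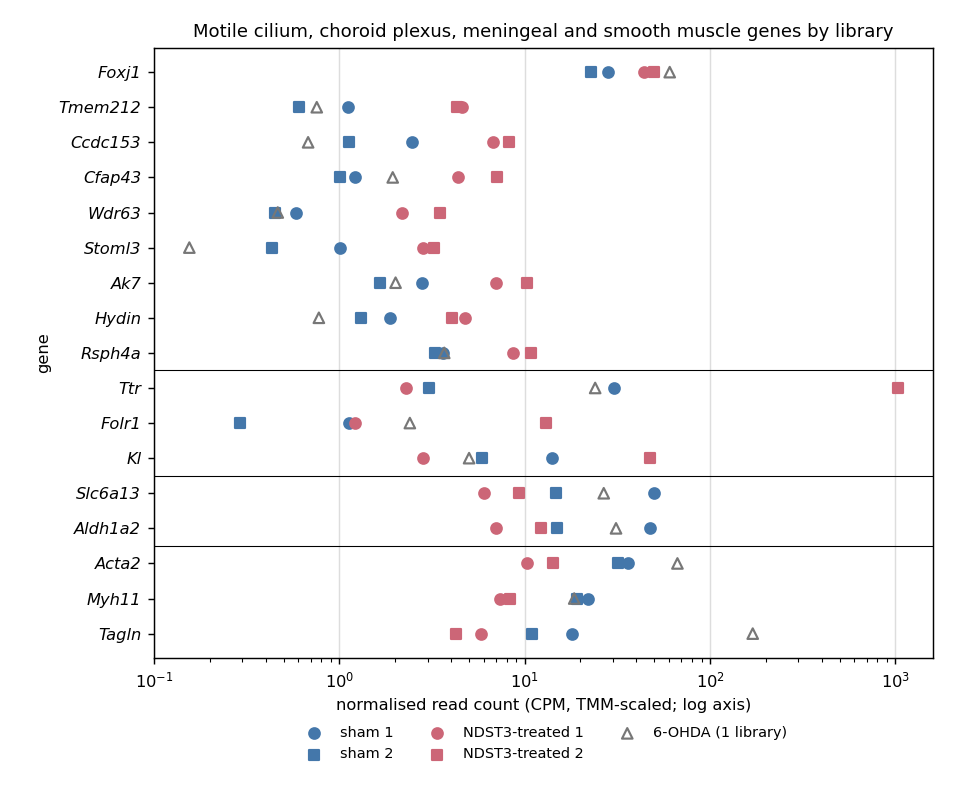
Normalised read count (CPM, log axis) of motile cilium, choroid plexus, meningeal and smooth muscle genes in each library, with symbols for sham (blue), NDST3-treated (red) and 6-OHDA (open triangle) libraries. Cilium genes such as *Hydin* were higher in both treated libraries, *Ttr* was at 1030 CPM in NDST3-treated library 2 only, and *Acta2* was lower in both treated libraries.

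Beyond these lists, the 10 largest rises and falls among genes of at least 1 CPM on average whose groups did not overlap held many of the members above. The rises also included *Cst7*, a cystatin of activated microglia, *Lyz1*, a lysozyme whose reads may be shared with its neighbour *Lyz2*, and *Hal*, histidine ammonia-lyase, which rose from 0.815 and 0.217 CPM to 5.59 and 8.16 CPM. *Ldlrad2* rested on 1 library, at 3.65 CPM in NDST3-treated library 2 against 0.403 CPM in library 1, and 1 of 4 leave-one-out fits kept the call. The falls also included *Gulo*, the last enzyme of vitamin C synthesis, and *Il13ra2*, a decoy receptor for interleukin 13, each kept by 2 of 4 leave-one-out fits. Of all genes that rose, 433 of 923 did so in every leave-one-out fit, and of those that fell 44 of 208 did.

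The deposited single-cell table gave mean values per cluster for an NDST3-treated library, and served only to describe where the changed genes were seen, with no test, since each group had 1 library. A gene was taken as detected where its highest cluster mean passed 0.1, and clusters are given by number with their markers. Of the 923 genes that rose 690 were detected. Cluster 6, where all 8 microglia markers were highest, held the highest mean of 19% of them, against 9.77% of all 11325 tested genes detected. Cluster 3, with 3 of the 6 monocyte or macrophage markers detected (*Lyz2*, *Mrc1* and *Ms4a7*), held 17.1% against 4.57%. The other markers of that set were highest in cluster 1 (*Ccr2* and *Plac8*) and cluster 4 (*Ly6c2*). Cluster 1, with all 7 neutrophil markers, held 17.2% against 6.75%. Cluster 2, which held most astrocyte, oligodendrocyte and choroid plexus markers, had the largest share of the genes that rose, 23.5%, below its 33.1% of all. *Gpnmb* and *Itgax* had their highest mean in cluster 3. Among reactive astrocyte genes that rose, *Lcn2* and *Steap4* were highest in cluster 1, *Cxcl10* in cluster 6, *C4b* in cluster 3 and *Vim* in cluster 5. *Gfap*, *Timp1* and *Cd109* were highest in cluster 2. Of the 208 genes that fell only 38 were detected, and 15 of these (39.5%) were highest in cluster 5, where all 7 mural markers lay, against 10.5% of all. *Acta2*, *Myh11* and *Tagln* were among them. That library was made from dissociated cells after a density gradient, with 2 of 10 neuron markers detected, and the means of *Th* and *Slc6a3* did not exceed 0.007 in any cluster.

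H3K27ac, a histone mark of active promoters and enhancers, was measured by CUT&RUN and deposited as 1 pooled column a group, so it is described with no test. Over 199 regions near 135 of the genes that rose the median log2 ratio of signal, NDST3-treated over sham, was 0.59. It was 0.35 over 16 regions near 11 genes that fell and 0.53 over 10458 regions near 6634 tested genes. The genes that rose were thus close to the median of all regions. Single genes that rose differed: at *B2m* the signal was 10.05 in sham and 25.38 in the NDST3-treated column, and at *Atf3* it was 8.55 and 9.94. Regions of *Gbp2* went opposite ways: the signal was 34.27 and 19.92 at the region nearest the start and 11.3 and 24.12 at another.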

How the data were processed

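Per the methods of the study, poly-A selected stranded libraries were sequenced in pairs, trimmed with Trimmomatic, aligned to mm10 with HISAT2 and quantified per gene with StringTie. The authors deposited raw read counts and FPKM values per gene and library, and the strand setting of the counting is not given in the sources used here. Overlapping or near-identical genes may therefore share reads. The 5 columns of TPM values were not used. The H3K27ac signal the authors deposited, 1 column a group, and the natural log (ln) means they deposited per single-cell cluster served for description.

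Counts were fitted with edgeR 4.0.16 in R 4.3.3 (filterByExpr, TMM factors, glmQLFit and glmQLFTest) over 5 libraries, which left 2 residual degrees of freedom, with a biological coefficient of variation of 20.3%. The contrast was NDST3-treated minus sham. Errors of log2 fold changes are standard errors, n = 2 libraries a group, and adjusted p-values are Benjamini-Hochberg values over all 19300 genes. Alternatives were DESeq2 1.42.0, limma 3.58.1 applied to FPKM on a log2 scale after adding 1 or 0.1, other scaling, filters and blocks, and leaving out each library. The fits were tested on simulated data. Counting error is small at these depths for genes with many reads and larger for levels well below 1 CPM. It does not cover differences between animals.

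The comparison, the gene lists and the thresholds were chosen with earlier results of these data known. Named genes were *Ndst3*, the 10 largest rises and falls of at least 1 CPM on average whose groups did not overlap, and from each list the 6 members of smallest unadjusted p and the first 3 as written; because no gene passed the adjusted threshold, the 2-fold rule chose the largest changes. Named outside that rule, after their values were seen, were *Abcg1*, *Aldh1a7*, *Apoc1*, *C3*, *C4b*, *Cd163*, *Cfap43*, *Ch25h*, *Cybb*, *Dio3*, *Fcgr1*, *Gbp2*, *Hydin*, *Isg15*, *Maoa*, *Mcm2*, *Meg3*, *Mrc1*, *Nkx6-1*, *Rtl1*, *Snrpn*, *Snurf*, *Tlr7*, *Trac*, *Trbc2* and *Trpc6*. Promoter sequences came from RefSeq (GRCm38.p6). Positions of the H3K27ac regions could not be matched to this build, as 3.11% of them had distances to a gene start that matched it within 200 bases, so regions are given by gene only. Some genes are not reported here.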

Additional observations from a re-analysis of the deposited data

How the results depend on the processing

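The 4 libraries set the limit. With 2 libraries a group no edgeR adjusted p reached 0.05 under any scaling or filter, with the replicate block or with limma, and DESeq2 called 837 genes higher and 202 lower. Leaving out 1 library moved the genes that rose between 555 and 1351 and those that fell between 79 and 382, with 0 to 87 higher and 0 to 24 lower at an adjusted p under 0.05 in edgeR. Without NDST3-treated library 1, 1351 rose and 382 fell, and without NDST3-treated library 2 the counts were 555 and 191. Without sham library 1 they were 954 and 79, and without sham library 2 they were 572 and 298, each fit taking the lone library to vary like the others. A minimum of 1 CPM in all 4 libraries left 450 rising and 68 falling of 14559 tested. On FPKM values limma called 347 and 25 with a pseudocount of 1, and 763 and 94 with 0.1. The share of calls that were rises was 81.6% in the fit reported, 93.3% with the pseudocount of 1, 92.4% without sham library 1 and 65.7% without sham library 2. Other scalings gave between 885 and 909 rises and 193 and 217 falls. The causes were not tested.

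The labels number the libraries 1 and 2 in both groups, but nothing says that a number marks a shared animal or day, and the deviations of same-numbered libraries had a Pearson r of -0.337 across genes. With the replicate block 791 genes rose and 156 fell (731 and 144 with the 4 libraries alone). With the numbers crossed, an alternative added after seeing the data, 984 rose and 237 fell, and 698 were higher and 93 lower at an adjusted p under 0.05 in edgeR.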

Other observations

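Gene groups that none of the lists above covered are given as values. These lists were written after the values had been seen. Of 19 tested genes in a list drawn up around the Toll-like receptors, and not limited to them, 13 rose, with a median log2 fold change of 2.03. *Tlr7*, an endosomal sensor of single-stranded RNA, rose from 6.31 and 3.29 CPM in sham to 20.1 and 31.1 CPM in the NDST3-treated libraries. All 7 phagocyte NADPH oxidase genes rose, with a median of 2.32, and *Cybb*, the catalytic subunit, rose from 8.56 and 1.84 CPM to 25.5 and 55.9 CPM. Of 6 Fc receptor genes 5 rose, among them *Fcgr1*, the high-affinity receptor for IgG, which rose by 2.44 ± 0.23 on the log2 scale. All 4 apolipoprotein genes of the *Apoe* cluster rose, and *Apoc1* stood at 15.4 and 5.29 CPM in sham against 76 and 91.4 CPM.

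Some imprinted genes fell. Of 6 genes of the *Dlk1*-*Dio3* region 3 fell and none rose. *Meg3*, a maternally expressed noncoding RNA (chromosome 12, 109540996 to 109571729, GRCm38.p6), fell from 693 and 465 CPM in sham to 284 and 191 CPM. *Rtl1*, a paternally expressed gene of retrotransposon origin, fell from 10.3 and 11.1 CPM to 4.82 and 3.07 CPM, and *Dlk1* is given above. In each of these 3 the groups did not overlap, against 22.4% of all genes tested that were lower without overlap. They were called on the same libraries, so the lack of overlap adds no separate evidence. At the *Snrpn* region 1 of 6 genes fell. *Snurf* fell from 162 and 152 CPM to 66.8 and 67 CPM, while *Snrpn*, which shares its transcript, stood at 492 and 545 CPM in sham and 402 and 392 CPM in the treated libraries, so how reads were split between this pair is uncertain.

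Apart from the dopamine genes, the developmental regulator *Nkx6-1* fell from 2.31 and 2.1 CPM to 0.722 and 0.804 CPM. The cation channel gene *Trpc6* fell from 4.91 and 5.07 CPM to 1.11 and 1.32 CPM. These genes were chosen after their values were seen.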
